A study of Gallus gallus with 13 samples.

Results

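Mitochondrial respiratory chain genes of nuclear origin were followed in RNA from chicken limb bud cultures that expressed different homeodomain transcription factors. They were chosen by name alone. A gene was taken where its label in the expression table began with NDUF, SDHA to SDHD, UQCR, ATP5, or COX4 to COX8, with or without the suffix for chicken, and the transcript of highest mean level stood for the gene. This gave 42 of the 16737 Ensembl genes in the table. Levels are RPKM, reads scaled to the length of the transcript and the total reads of the library. This scaling does not correct for differences in the make-up of the libraries. The RPKM sum over all genes ran from 496059 in the empty vector to 543553 in HOXD13 wt, so ratios between libraries depend on the scaling.

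The cultures were micromasses, dense droplets of limb mesenchyme that form cartilage, plated from chicken limb buds of Hamburger-Hamilton stage 24 and grown for 9 days. The cells were infected at plating with the avian retrovirus RCASBP(A). The virus carried 3xFLAG-tagged mouse Hoxd13 as Q317K (lysine in place of a homeodomain glutamine), as Q317R (arginine in its place) or as wild type (wt), 3xFLAG-tagged chicken PITX1, or no insert (RCASBP(A)-empty, the empty vector). HOXD13 is a HOX factor of the distal limb, and PITX1 is a homeodomain factor of the hindlimb. All 5 groups had been infected, so the empty vector controls for the virus and not for the absence of infection, and the chicken cells kept their own HOXD13 and PITX1 genes. Each group had 1 RNA library among the 13 samples of the series, so there was no spread between replicates to test against and no p-value is given. Higher and lower refer to these single libraries. The labels do not say how many cultures were pooled or which share of cells was infected.

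The respiratory chain sits in the inner mitochondrial membrane. Complex I takes electrons from NADH and complex II from succinate, complex III passes them on to cytochrome c, and complex IV hands them to oxygen. All of these but complex II pump protons, and ATP synthase, also called complex V, uses the proton gradient to make ATP. Most subunits are encoded in the nucleus and imported, while a small set of core subunits is encoded by mitochondrial DNA. Cartilage has no vessels of its own while it grows, and chondrocytes are known for making much of their ATP by glycolysis.

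By role, as known from mammals, 21 members were subunits of complex I, 1 of complex III, 7 of complex IV and 8 of ATP synthase. NDUFA4 was counted with complex IV, where the mammalian protein is found despite its name. The other 5 members were not subunits. NDUFAF1 and NDUFA12L (NDUFAF2 in other species) are assembly factors of complex I, COX7A2L helps complexes join into supercomplexes, ATP5S is a coupling factor of ATP synthase, and COX4NB shares only its first letters with complex IV and belongs to the EMC complex of the endoplasmic reticulum. No label began with SDH. Complex II subunits were listed under UniProt names outside the rule and are described separately below. RefSeq, used for names only, held 40 of the 42 names as a symbol or synonym.

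Library totals recovered from the RPKM values were 14069766 reads for Q317K, 16793118 for Q317R, 14931544 for HOXD13 wt, 16114218 for PITX1 and 15274704 for the empty vector. All 42 members had an RPKM of at least 5 in every library, the floor used here for calling a gene measured, and the lowest member level was 8.67 RPKM. The fewest reads behind a member's value were 42, for COX7A2 in the empty vector library. The cultures' cartilage character was present in every library but differed widely in strength. The 12 measured cartilage markers, COL2A1 and SOX9 among them, took 0.488% of reads in Q317K, 2.90% in Q317R, 1.23% in HOXD13 wt, 0.95% in PITX1 and 3.83% in the empty vector. In RNA of whole cultures, fewer cells of a type and less RNA per cell cannot be told apart.

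As a group the members were well expressed genes. Their median level was 49.1 RPKM in Q317K, 43.9 in Q317R, 40.7 in HOXD13 wt, 44.9 in PITX1 and 36.5 in the empty vector. The median over all genes of the table was between 9.71 and 10.5 RPKM. Summed over the 42 members, the level was 2619 RPKM in Q317K, 2218 in Q317R, 2139.5 in HOXD13 wt, 2319 in PITX1 and 1951 in the empty vector. Q317K thus had the highest sum and the empty vector the lowest, with the other libraries between them. Q317K was the highest of the 5 libraries for 25 of the 42 members, against 19.0% of all 13201 genes measured in any library and 36.7% of the 1521 genes with a mean of at least 50 RPKM. The empty vector was the lowest for 25 members, against 25.9% of all genes and 32.3% of the abundant ones. NDUFA7 and NDUFB6 were highest in the empty vector.

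**Figure D1:**
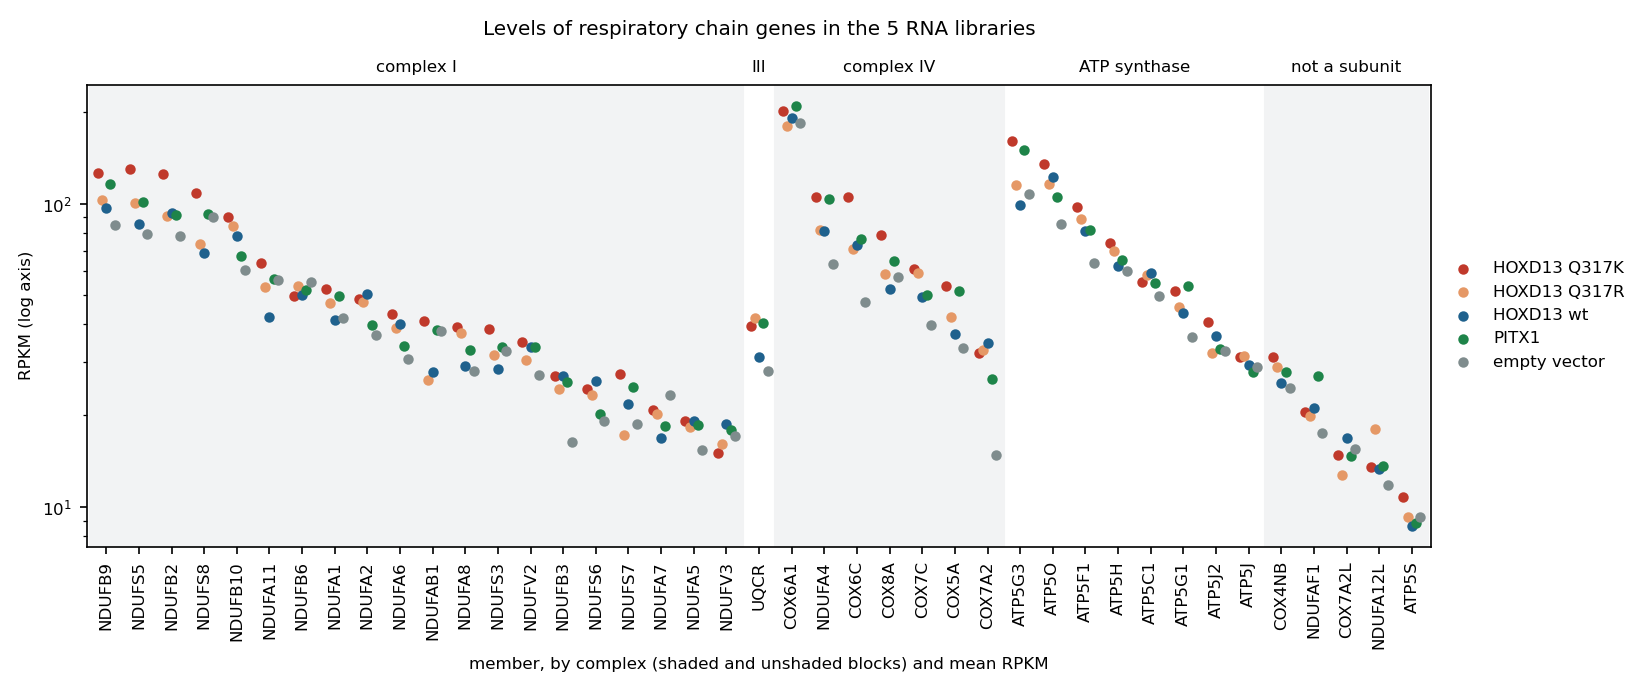
RPKM (log axis) of 41 of the 42 members in the 5 RNA libraries, 1 point a library, arranged by complex and mean level. COX6A1 had the highest mean level, at 180.3 to 211 RPKM, and the grey points of the empty vector are lowest for most members, with the widest gap at COX7A2.

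The first question the design asks is how each factor's library differs from that of the empty vector. Ratios were taken as log2 of (RPKM + 1), which slightly understates differences of low genes, and a gene 1.5-fold or more apart on this scale was counted. In Q317K 10 of the 42 members were at least 1.5-fold higher and 0 were lower, while 7.84% of the 12720 genes measured were higher and 11.3% were lower. The 10 were COX6C, COX7A2, NDUFA4, NDUFS5, NDUFB3, NDUFB2, COX5A, ATP5O, ATP5F1 and COX7C. The members' median log2 ratio was 0.34, against −0.01 over all genes. Abundant genes at large also lay above 0. Genes with an RPKM of at least 50 had a median of 0.19, and those of them within the members' range of lengths 0.25. At least 1.5-fold higher were 19.1% of these abundant genes and 22.4% of those of like length, against 23.8% of the members. At least 1.5-fold lower were 14.5% of the abundant genes and 13.7% of those of like length, against 0 members. The members were not held to 50 RPKM, so the sets differ in level. Members held to the same minimum had a median above those of both sets, as given below.

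In the other 3 factor libraries the members stood closer to the empty vector. In Q317R 1 member, COX7A2, was at least 1.5-fold higher and 0 were lower, against 7.41% and 6.90% of all genes. In HOXD13 wt 3 members (COX7A2, NDUFB3 and COX6C) were higher and 0 lower, against 7.99% and 9.83% of all genes. In PITX1 6 members (COX7A2, NDUFA4, COX6C, NDUFB3, COX5A and NDUFAF1) were higher and 0 lower, against 6.54% and 10.7% of all genes. Against all genes, the share of higher members was lower in Q317R, near in HOXD13 wt and higher in PITX1. Of abundant genes of like length 14.1% were at least 1.5-fold higher in Q317R, 13.4% in HOXD13 wt and 15.2% in PITX1. The members had 2.38% in Q317R, 7.14% in HOXD13 wt and 14.3% in PITX1. These abundant genes spread both ways, with 16.8% lower in Q317R, 20.3% in HOXD13 wt and 16.2% in PITX1. Their median log2 ratios were 0.04 in Q317R, −0.04 in HOXD13 wt and 0.08 in PITX1. The members were not held to 50 RPKM, so the sets differ in level. Median log2 ratios of members were 0.22 in Q317R, 0.15 in HOXD13 wt and 0.19 in PITX1, beside 0.02, −0.03 and −0.05 over all genes in the same 3 libraries. These 4 comparisons share the 1 empty vector library, so they are not independent of each other.

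**Figure D2:**
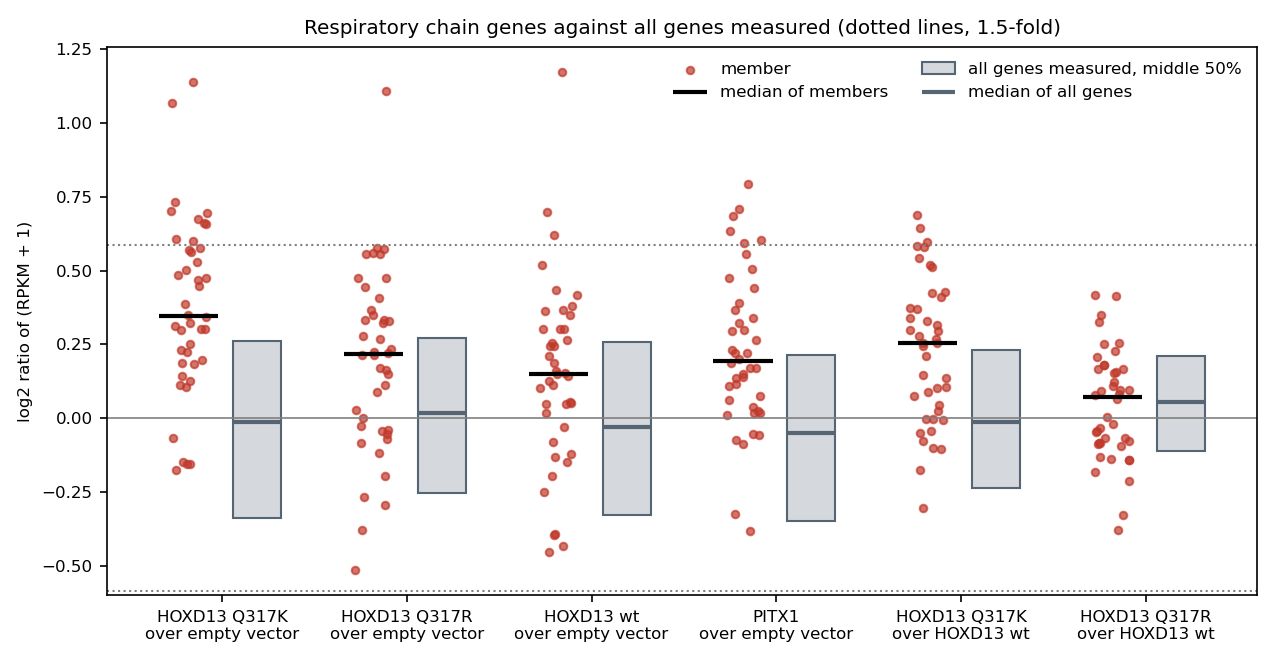
Log2 ratio of (RPKM + 1) of each member (points, with their median as a black line) beside the middle 50% and median of all genes measured (grey boxes) in the 6 comparisons. Dotted lines mark 1.5-fold: 10 members lie above the upper line in Q317K over the empty vector and no member lies below the lower line in any of the 6 comparisons.

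The members were also compared by their summed level. The sum was 1.34 times that of the empty vector in Q317K, 1.14 times in Q317R, 1.10 times in HOXD13 wt and 1.19 times in PITX1. On the recovered reads the members' share of a library was 1.31-fold higher in Q317K (95% interval 1.28 to 1.33), 1.13-fold in Q317R (1.10 to 1.15), 1.08-fold in HOXD13 wt (1.06 to 1.11) and 1.17-fold in PITX1 (1.15 to 1.19). These intervals, and those after fold ratios below, are exact Clopper-Pearson intervals that cover counting error only. The RPKM sum over all genes measured was itself 1.07 times that of the empty vector in Q317K, 1.03 times in Q317R, 1.10 times in HOXD13 wt and 1.05 times in PITX1. In HOXD13 wt the members' RPKM sum therefore differed from the empty vector by the same factor as that of all genes together. With all libraries brought to 1 RPKM sum the members' ratio in HOXD13 wt was 1.00. On the recovered reads this equality did not hold. There the share of all genes measured was 1.025-fold higher in HOXD13 wt, against 1.08-fold for the members. The reading for HOXD13 wt thus depended on the measure.

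Complex IV, cytochrome c oxidase, held the members with the largest ratios. The 7 nuclear subunits had a median log2 ratio over the empty vector of 0.66 in Q317K, 0.37 in Q317R, 0.30 in HOXD13 wt and 0.60 in PITX1. In Q317K 5 of the 7 were at least 1.5-fold higher, in Q317R 1, in HOXD13 wt 2 and in PITX1 4. Over all genes measured these shares were 7.84% in Q317K, 7.41% in Q317R, 7.99% in HOXD13 wt and 6.54% in PITX1. Among abundant genes of like length they were 22.4% in Q317K, 14.1% in Q317R, 13.4% in HOXD13 wt and 15.2% in PITX1. The same shares stand beside the counts of ATP synthase and complex I below. COX7A2 (ENSGALG00000015906), a small membrane subunit whose mammalian form is the one found outside heart and muscle, had 32.1 RPKM in Q317K, 33.0 in Q317R, 34.6 in HOXD13 wt, 26.4 in PITX1 and 14.8 in the empty vector. All 4 factor libraries lay above the empty vector, with PITX1 the lowest of the 4. The fold over the empty vector was 2.17 in Q317K (1.48 to 3.22), 2.23 in Q317R (1.54 to 3.27), 2.34 in HOXD13 wt (1.61 to 3.45) and 1.78 in PITX1 (1.21 to 2.66). The intervals are wide because only 42 to 103 reads stood behind each value.

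COX6C (ENSGALG00000019445), another small subunit in the membrane part, had 105 RPKM in Q317K, 71.0 in Q317R, 73.1 in HOXD13 wt, 76.5 in PITX1 and 47.2 in the empty vector. Here Q317K stood apart from the other factors as well as from the empty vector. It was 2.23-fold above the empty vector (1.84 to 2.71), where Q317R was 1.503-fold (1.23 to 1.84), HOXD13 wt 1.55-fold (1.26 to 1.90) and PITX1 1.62-fold (1.33 to 1.98). NDUFA4 (ENSGALG00000010712) had 105 RPKM in Q317K, 81.6 in Q317R, 81.4 in HOXD13 wt, 104 in PITX1 and 63.1 in the empty vector. COX5A, on the matrix side of the complex, had 53.5 RPKM in Q317K, 42.3 in Q317R, 37.2 in HOXD13 wt, 51.4 in PITX1 and 33.5 in the empty vector. For both genes Q317K and PITX1 were the high libraries, and Q317R and HOXD13 wt were intermediate. NDUFA4 was 1.67-fold above the empty vector in Q317K (1.42 to 1.98) and 1.64-fold in PITX1 (1.40 to 1.94), and COX5A was 1.60-fold in Q317K (1.32 to 1.94) and 1.54-fold in PITX1 (1.27 to 1.86).

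The remaining complex IV subunits varied less. COX7C had 60.8 RPKM in Q317K, 58.9 in Q317R, 49.3 in HOXD13 wt, 50.05 in PITX1 and 39.8 in the empty vector. COX8A had 78.6 RPKM in Q317K, 58.5 in Q317R, 52.3 in HOXD13 wt, 64.6 in PITX1 and 57.3 in the empty vector, so that HOXD13 wt lay lowest. COX6A1, in mammals the form found outside heart and muscle, was the most abundant member and the flattest of the complex, with 202 RPKM in Q317K, 180.3 in Q317R, 192 in HOXD13 wt, 211 in PITX1 and 185 in the empty vector. Its highest and lowest libraries were 1.17-fold apart (1.09 to 1.254). The side of 0 on which its ratio of HOXD13 wt to the empty vector fell depended on scaling, with a log2 ratio of 0.05 as deposited and −0.08 at equal RPKM sums.

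**Figure D3:**
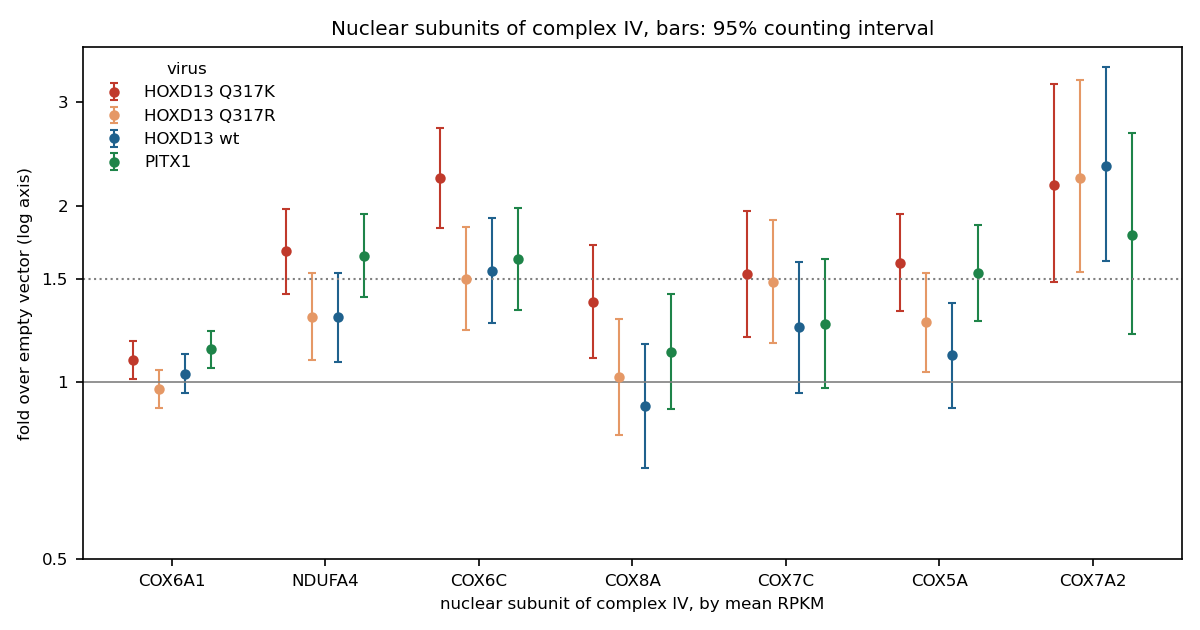
Fold over the empty vector (log axis) of the 7 nuclear complex IV subunits in the 4 factor libraries, with bars for 95% counting intervals and a dotted line at 1.5-fold. COX7A2 lies at 1.78-fold to 2.34-fold with wide bars, COX6C reaches 2.23-fold in Q317K, and COX6A1 stays within 0.97 to 1.14.

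Transcript length ran together with these ratios. Library fragments were selected at 300 to 500 bases, per the labels' protocols. By length, 6 members were under 300 bases: COX6C, COX7A2, NDUFA4, COX7C, COX8A and UQCR. The lengths were recovered from the RPKM values, not read from an annotation, and may be fractions of the true ones. They are the lengths used for scaling, and no label says whether these span the whole mRNA. The 6 short members had a median log2 ratio over the empty vector of 0.67 in Q317K, 0.56 in Q317R, 0.33 in HOXD13 wt and 0.60 in PITX1. That of the 36 longer members was 0.31 in Q317K, 0.19 in Q317R, 0.14 in HOXD13 wt and 0.16 in PITX1. Among the 36 longer members, 6 were at least 1.5-fold higher in Q317K, 0 in Q317R, 1 in HOXD13 wt and 3 in PITX1. Genes under 300 bases at large, taken at an RPKM of at least 10, had medians of 0.10 in Q317K, 0.05 in Q317R, −0.09 in HOXD13 wt and −0.07 in PITX1, over 219 to 231 genes. Of these genes 20.3% were at least 1.5-fold higher in Q317K, 14.2% in Q317R, 14.3% in HOXD13 wt and 16.9% in PITX1. Their share of reads was 1.42 times that of the empty vector in Q317K, 1.24 times in Q317R, 1.86 times in HOXD13 wt and 1.29 times in PITX1. The part of fragment selection in the ratios of the short members was not tested.

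ATP synthase subunits were higher than in the empty vector by smaller steps. The median log2 ratio of the 8 subunits was 0.40 in Q317K, 0.22 in Q317R, 0.20 in HOXD13 wt and 0.22 in PITX1, and 2 of them were at least 1.5-fold higher in Q317K and 0 in the other 3 libraries. ATP5O, which joins the catalytic head to the peripheral stalk, had 135 RPKM in Q317K, 116 in Q317R, 123 in HOXD13 wt, 105 in PITX1 and 85.3 in the empty vector. ATP5F1, the b subunit of the stalk, had 97.2 RPKM in Q317K, 88.6 in Q317R, 81.2 in HOXD13 wt, 82.1 in PITX1 and 63.5 in the empty vector. The empty vector lay lowest for both. ATP5O was 1.58-fold higher in Q317K (1.46 to 1.72) and ATP5F1 1.53-fold (1.40 to 1.67).

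The genes for the membrane ring, ATP5G1 and ATP5G3, both encode the c subunit, and reads from their similar stretches may have been split between them in counting. ATP5G3 had 160.5 RPKM in Q317K, 115 in Q317R, 99.3 in HOXD13 wt, 150.3 in PITX1 and 108 in the empty vector. ATP5G1 had 51.6 RPKM in Q317K, 45.5 in Q317R, 43.4 in HOXD13 wt, 53.7 in PITX1 and 36.2 in the empty vector. Q317K and PITX1 were the high libraries for both genes, and ATP5G3 in HOXD13 wt, at 0.92 times the empty vector (0.842 to 1.005), was not distinguishable from it by counting error. ATP5H, ATP5C1, ATP5J2 and ATP5J, subunits of the stalk, the rotor and the membrane part, differed by 1.12-fold to 1.26-fold between their highest and lowest libraries.

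Complex I had the most members and the most mixed pattern. The 21 subunits had a median log2 ratio over the empty vector of 0.34 in Q317K, 0.16 in Q317R, 0.13 in HOXD13 wt and 0.14 in PITX1. In Q317K 17 of the 21 lay above the empty vector and 3 (NDUFS5, NDUFB3 and NDUFB2) were at least 1.5-fold higher, and in HOXD13 wt and PITX1 NDUFB3 alone was. NDUFB3 (ENSGALG00000008239), an accessory subunit of the membrane arm, had 27.0 RPKM in Q317K, 24.4 in Q317R, 27.0 in HOXD13 wt, 25.8 in PITX1 and 16.3 in the empty vector. Its 4 factor libraries lay within 1.11-fold of each other, and the fold over the empty vector was 1.66 in Q317K (1.35 to 2.04), 1.498 in Q317R (1.22 to 1.84), 1.66 in HOXD13 wt (1.35 to 2.04) and 1.59 in PITX1 (1.30 to 1.95). NDUFS5, an accessory subunit, had 129.9 RPKM in Q317K, 100.4 in Q317R, 85.5 in HOXD13 wt, 101 in PITX1 and 79.5 in the empty vector. NDUFB2, of the membrane arm, had 125 RPKM in Q317K, 90.9 in Q317R, 93.0 in HOXD13 wt, 91.4 in PITX1 and 78.3 in the empty vector. In both, Q317K stood above the other 4 libraries, at 1.63-fold (1.43 to 1.86) and 1.60-fold (1.43 to 1.80) over the empty vector.

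Other complex I subunits did not follow NDUFB3. NDUFS8, an iron-sulfur subunit of the core that carries the redox chemistry, had 108 RPKM in Q317K, 73.8 in Q317R, 68.9 in HOXD13 wt, 92.2 in PITX1 and 90.7 in the empty vector. For NDUFS8 the empty vector lay in the middle, with Q317R at 0.81 times its level (0.75 to 0.88) and HOXD13 wt at 0.76 times (0.70 to 0.83). NDUFAB1, the mitochondrial acyl carrier protein, had 41.0 RPKM in Q317K, 26.2 in Q317R, 27.8 in HOXD13 wt, 38.3 in PITX1 and 37.9 in the empty vector. Q317R and HOXD13 wt were the low pair here as well, at 0.69 times (0.59 to 0.81) and 0.73 times (0.62 to 0.86) the empty vector. NDUFA11, a membrane arm subunit, had 63.8 RPKM in Q317K, 53.2 in Q317R, 42.2 in HOXD13 wt, 56.3 in PITX1 and 55.8 in the empty vector.

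NDUFS3 and NDUFV2, core subunits of the matrix arm, showed 38.5 and 34.9 RPKM in Q317K and 32.6 and 27.2 RPKM in the empty vector, with the other 3 libraries between 28.4 and 33.8 RPKM. NDUFS7, another core iron-sulfur subunit, ran from 17.2 RPKM in Q317R to 27.5 in Q317K, with 18.8 in the empty vector. NDUFB9 and NDUFB10, of the membrane arm, were 1.48-fold (1.36 to 1.62) and 1.5-fold (1.37 to 1.65) higher in Q317K than in the empty vector. NDUFB6 was nearly flat, with 49.6 to 55.3 RPKM over the 5 libraries. NDUFA7 and NDUFV3 were among the low members, at 16.8 to 23.3 and 15.0 to 18.7 RPKM. The other complex I members, NDUFA1, NDUFA2, NDUFA5, NDUFA6, NDUFA8 and NDUFS6, differed by 1.248-fold to 1.41-fold between their highest and lowest libraries.

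**Figure D4:**
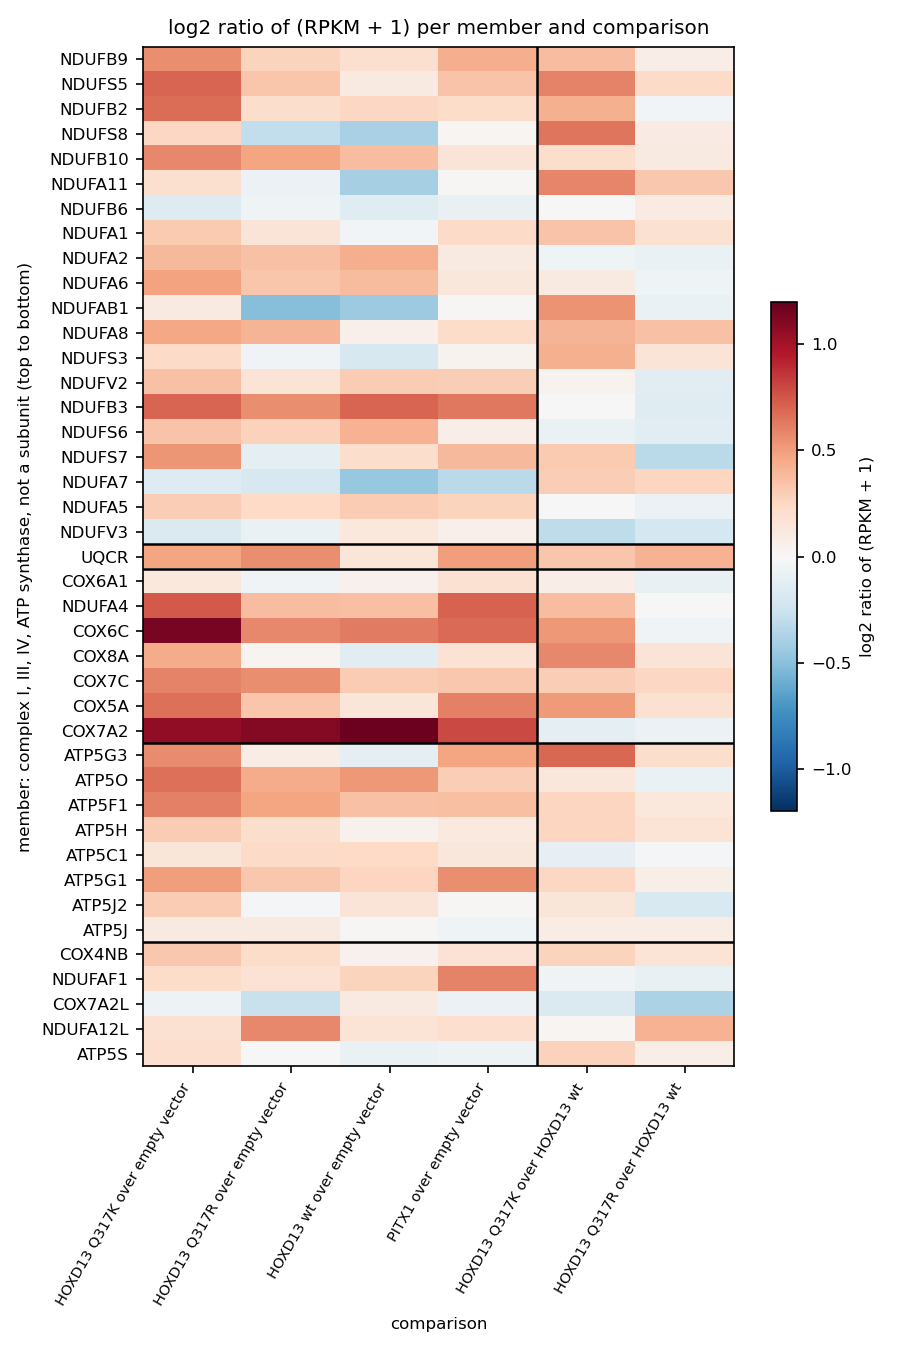
Log2 ratio of (RPKM + 1) of 41 of the 42 members (rows, by complex and mean level) in the 6 comparisons (columns), red for higher and blue for lower. COX7A2 and NDUFB3 are red in all 4 comparisons with the empty vector and pale between the HOXD13 forms, while NDUFS8, NDUFA11 and NDUFAB1 are blue in HOXD13 wt and red in Q317K over HOXD13 wt.

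The only complex III member, UQCR (UQCR11 in RefSeq), a small subunit, had 39.3 RPKM in Q317K, 41.8 in Q317R, 31.1 in HOXD13 wt, 40.3 in PITX1 and 28.1 in the empty vector. It rested on 72 to 118 reads, and its interval over the empty vector excluded 1 in Q317K, Q317R and PITX1 but not in HOXD13 wt. Of the 5 members that are not subunits, NDUFAF1 was 1.54-fold higher in PITX1 (1.34 to 1.77), with 26.9 RPKM in PITX1 and 17.5 in the empty vector. NDUFA12L was 1.53-fold higher in Q317R (1.23 to 1.90), with 18.0 RPKM in Q317R and 11.8 in the empty vector, just under the threshold on the log2 scale. COX7A2L, paralogous to COX7A2, did not share its pattern, with 14.8 RPKM in Q317K, 12.8 in Q317R, 16.9 in HOXD13 wt, 14.8 in PITX1 and 15.6 in the empty vector. ATP5S and COX4NB stayed within 1.26-fold over the 5 libraries.

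Nuclear subunits listed under UniProt names were not chosen by the rule and are given beside the members. The 6 given here were picked by hand, so the set may not be complete. Their median log2 ratio over the empty vector was 0.37 in Q317K, 0.14 in Q317R, −0.01 in HOXD13 wt and 0.30 in PITX1. ATP5B, the catalytic beta subunit of ATP synthase, had 543 RPKM in Q317K, 459 in Q317R, 380.1 in HOXD13 wt, 489.8 in PITX1 and 463 in the empty vector, so that HOXD13 wt was the low library. Complex II was represented by SDHA, SDHB and SDHD. SDHA, its flavoprotein, had 40.0 RPKM in Q317K, 36.3 in Q317R, 37.4 in HOXD13 wt, 39.9 in PITX1 and 29.7 in the empty vector. SDHB, its iron-sulfur subunit, had 61.1 RPKM in Q317K, 55.9 in Q317R, 50.3 in HOXD13 wt, 50.9 in PITX1 and 47.5 in the empty vector. SDHD, its membrane anchor, had 102 RPKM in Q317K, 94.3 in Q317R, 90.5 in HOXD13 wt, 89.0 in PITX1 and 74.9 in the empty vector. All 3 were lowest in the empty vector and highest in Q317K. UQCRFS1, of complex III, had 92.2 RPKM in Q317K, 77.9 in Q317R, 69.4 in HOXD13 wt, 96.4 in PITX1 and 75.2 in the empty vector. NDUFB4, of complex I, had 42.8 RPKM in Q317K, 33.9 in Q317R, 30.7 in HOXD13 wt, 43.2 in PITX1 and 32.7 in the empty vector. Both were lowest in HOXD13 wt and highest in PITX1. None of the 6 reached 1.5-fold in a comparison with the empty vector.

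The second question is how the 2 mutants differ from HOXD13 wt. In Q317K 3 of the 42 members (ATP5G3, NDUFS8 and NDUFS5) were at least 1.5-fold higher than in HOXD13 wt and 0 were lower, against 8.06% and 8.02% of the 12512 genes measured. The members' median log2 ratio was 0.26, against −0.01 over all genes, 0.22 over genes with an RPKM of at least 50 and 0.29 over those of them within the members' range of lengths. Of these abundant genes of like length 21.5% were at least 1.5-fold higher and 12.3% lower. All 42 members entered their median, also those under 50 RPKM, so the sets differ in level. Members held to the same minimum had a median above that of abundant genes of like length, as given below. ATP5G3 was 1.62-fold higher (1.49 to 1.76), NDUFS8 1.57-fold (1.44 to 1.71) and NDUFS5 1.52-fold (1.34 to 1.73), and NDUFA11 at 1.51-fold (1.31 to 1.75) and COX8A at 1.503-fold (1.197 to 1.89) were just under the threshold on the log2 scale. COX7A2 at 0.93 times (0.69 to 1.26) and NDUFB3 at 0.998 times (0.833 to 1.196), both higher than in the empty vector in each HOXD13 form, were not told apart between Q317K and HOXD13 wt by counting error. NDUFV3 had the most negative ratio, with 15.0 RPKM in Q317K and 18.7 in HOXD13 wt.

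Q317R lay close to HOXD13 wt. No member was 1.5-fold higher or lower, while 4.79% and 4.47% of the 12646 genes measured were. The members' median log2 ratio was 0.07, against 0.06 over all genes, and their summed level was 1.04 times that of HOXD13 wt. The widest ratios were 1.35-fold for UQCR (1.002 to 1.81), 1.36-fold for NDUFA12L (1.10 to 1.68) and 0.76 times for COX7A2L (0.55 to 1.04). For complex I the median was −0.03 as deposited and 0.06 at equal RPKM sums, so its side of 0 depended on scaling.

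The subunits encoded by mitochondrial DNA, in the same complexes, formed a second set with its own pattern. All 13 were listed, under UniProt names outside the rule. On the recovered reads they took 3.24% of the library in Q317K, 2.56% in Q317R, 3.16% in HOXD13 wt, 3.33% in PITX1 and 2.62% in the empty vector. These shares are too low where the recovered length of an entry is a fraction of the true one. Their median log2 ratio over the empty vector was 0.47 in Q317K, 0.10 in Q317R, 0.43 in HOXD13 wt and 0.62 in PITX1. At least 1.5-fold higher were 6 of the 13 in Q317K, 1 in Q317R, 2 in HOXD13 wt and 7 in PITX1. The shares over all genes were 7.84% in Q317K, 7.41% in Q317R, 7.99% in HOXD13 wt and 6.54% in PITX1. Over genes with an RPKM of at least 50 they were 19.1% in Q317K, 12.8% in Q317R, 13.8% in HOXD13 wt and 15.2% in PITX1. PITX1 was the highest library for 7 of the 13 and Q317K for 25 of the 42 nuclear members. Between the HOXD13 forms, Q317R was lower than HOXD13 wt for all 13, with a median log2 ratio of −0.33, where the nuclear members had 0.07. In Q317K over HOXD13 wt the median was 0.03, with 7 of the 13 above 0 and single entries from 0.755 times for ND6 (0.728 to 0.782) to 1.30 times for ND3 (1.17 to 1.43).

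COX1, the catalytic core of complex IV and the most abundant entry of the 13, had 7548 RPKM in Q317K, 6144 in Q317R, 7717 in HOXD13 wt, 8002 in PITX1 and 7275 in the empty vector. CYTB, the core of complex III encoded there, had 2602 RPKM in Q317K, 1822 in Q317R, 2148 in HOXD13 wt, 2587 in PITX1 and 1601 in the empty vector. ND4L, a proton-pumping subunit of complex I, had 895 RPKM in Q317K, 709 in Q317R, 829 in HOXD13 wt, 978 in PITX1 and 542 in the empty vector. COX1 was nearly flat outside Q317R, while CYTB and ND4L were clearly lower in the empty vector, so the entries differed among themselves. ND6 had the largest ratio, 2.06-fold in HOXD13 wt (1.98 to 2.15). Mitochondrial genes are transcribed as long precursors from both strands, some overlap, and ND6 lies opposite the others. Without a stated strand its reads cannot be told apart from those of the other strand.

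**Figure D5:**
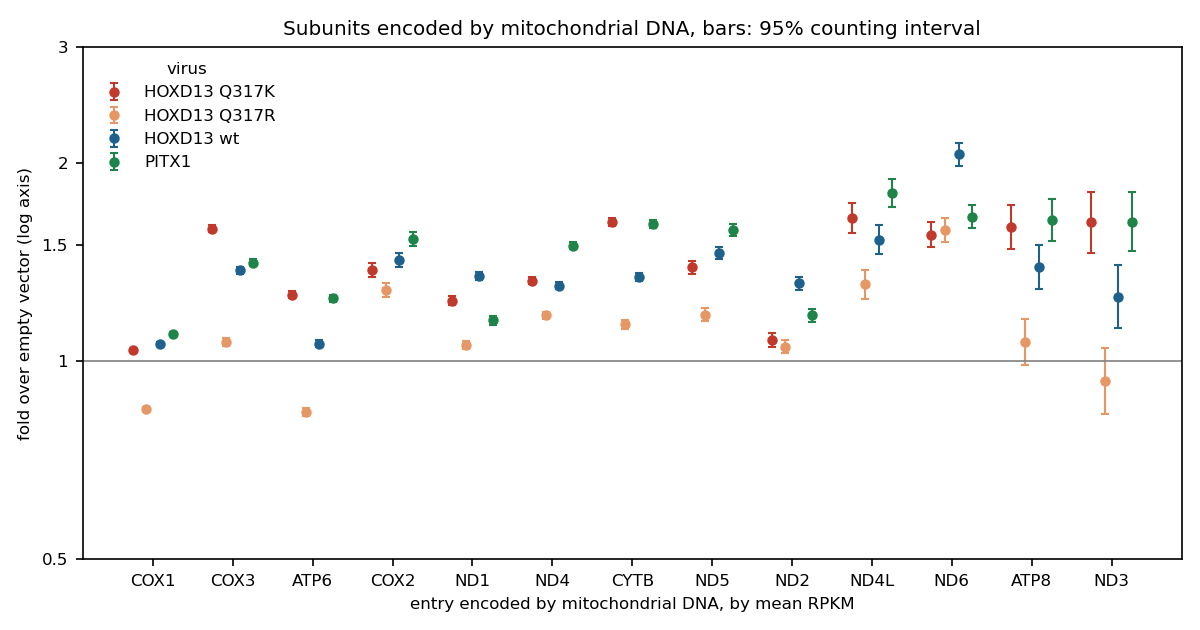
Fold over the empty vector (log axis) of the 13 subunits encoded by mitochondrial DNA in the 4 factor libraries, with bars for 95% counting intervals. Q317R lies lowest of the 4 for most entries and under 1 for COX1, ATP6 and ND3, and ND6 reaches 2.06-fold in HOXD13 wt.

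Other genes of energy metabolism were counted from lists of known members. Beside the list counts here and below, the shares of all genes at least 1.5-fold higher than in the empty vector were 7.84% in Q317K, 7.41% in Q317R, 7.99% in HOXD13 wt and 6.54% in PITX1. Those at least 1.5-fold lower were 11.3% in Q317K, 6.90% in Q317R, 9.83% in HOXD13 wt and 10.7% in PITX1. Of 13 measured genes of glycolysis and lactate export, 0 were at least 1.5-fold higher and 3 lower in Q317K than in the empty vector, 1 higher and 1 lower in Q317R, 0 higher and 4 lower in HOXD13 wt, and 1 higher and 2 lower in PITX1. Their median log2 ratios were −0.25 in Q317K, −0.12 in Q317R, −0.09 in HOXD13 wt and −0.33 in PITX1. SLC16A3, the lactate exporter MCT4, had 70.6 RPKM in Q317K, 191 in Q317R, 135 in HOXD13 wt, 76.0 in PITX1 and 266 in the empty vector. ENO2, an enolase, had 18.3 RPKM in Q317K, 25.7 in Q317R, 25.4 in HOXD13 wt, 12.6 in PITX1 and 47.3 in the empty vector. Both were highest in the empty vector. GAPDH, with 2628 RPKM in Q317K, 3206 in Q317R, 3366 in HOXD13 wt, 2875 in PITX1 and 2676 in the empty vector, did not follow them. Nor did ENO1, a more abundant enolase and the 1 higher gene in Q317R. It had 1175 RPKM in Q317K, 2055 in Q317R, 1990 in HOXD13 wt, 1107 in PITX1 and 1356 in the empty vector. The 13 genes summed to 6881 RPKM in Q317K, 8939 in Q317R, 8612 in HOXD13 wt, 6663 in PITX1 and 7716 in the empty vector. The libraries with the lowest SLC16A3 were also those with the least cartilage marker RNA, and the part of cartilage content in these levels was not tested.

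Carriers and other genes that serve the chain were counted in the same way. Of 13 measured genes in a list of electron carriers and carriers of ATP and phosphate, 3 were at least 1.5-fold higher and 1 lower in Q317K. In PITX1 3 were higher and 1 lower, and none either way in Q317R or HOXD13 wt. The list was wider than its name. It also held COQ3, COQ5, COQ6, COQ7, COQ9, CKMT1A, CKMT2 and ATPIF1, which are not carriers. The 1 lower in Q317K was CKMT2, at 2.92 RPKM against 5.09 in the empty vector. SLC25A6, an ADP/ATP carrier, had 250.0 RPKM in Q317K, 172 in Q317R, 151 in HOXD13 wt, 244 in PITX1 and 151 in the empty vector. ATPIF1, the inhibitor of ATP synthase running in reverse, had 31.1 RPKM in Q317K, 20.7 in Q317R, 18.1 in HOXD13 wt, 25.4 in PITX1 and 15.5 in the empty vector. VDAC3, a channel of the outer membrane, had 44.5 RPKM in Q317K, 40.1 in Q317R, 40.9 in HOXD13 wt, 57.0 in PITX1 and 28.1 in the empty vector, while its paralog VDAC1 was low in PITX1 alone, at 16.6 RPKM against 28.9 in the empty vector. CYCS, cytochrome c, had 40.7 RPKM in Q317K, 39.1 in Q317R, 29.5 in HOXD13 wt, 39.6 in PITX1 and 28.3 in the empty vector.

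The 4 measured genes of the citric acid cycle and pyruvate dehydrogenase had a median log2 ratio over the empty vector of 0.32 in Q317K, 0.07 in Q317R, −0.02 in HOXD13 wt and 0.15 in PITX1, and none reached 1.5-fold in these comparisons. OGDH, of the oxoglutarate dehydrogenase complex, had 92.2 RPKM in Q317K, 54.4 in Q317R, 51.1 in HOXD13 wt, 73.6 in PITX1 and 71.5 in the empty vector, so that Q317R and HOXD13 wt were the low pair, as for NDUFS8 and NDUFAB1. The 3 measured genes of fatty acid oxidation had medians of 0.50 in Q317K, 0.26 in Q317R, 0.26 in HOXD13 wt and 0.23 in PITX1, and 1 of them, ECHS1, was at least 1.5-fold higher in HOXD13 wt. None of 9 measured assembly factors of complexes III and IV reached 1.5-fold in any comparison. Of 56 mitochondrial ribosomal protein genes, 4 were at least 1.5-fold higher in Q317K, 3 in Q317R, 3 in HOXD13 wt and 1 in PITX1, and 0 were lower in these 4. As shares, the higher ones were near or below those over all genes. Their medians were 0.20 in Q317K, 0.12 in Q317R, 0.15 in HOXD13 wt and 0.02 in PITX1.

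Of 17 measured genes for mitochondrial biogenesis and DNA maintenance, 0 were higher and 2 lower in Q317K, 0 and 1 in Q317R, 1 and 2 in HOXD13 wt, and 0 and 1 in PITX1. PPRC1, a coactivator that stimulates nuclear genes for mitochondrial proteins, had 32.4 RPKM in Q317K, 26.8 in Q317R, 25.3 in HOXD13 wt, 29.4 in PITX1 and 53.7 in the empty vector. It was thus highest in the empty vector, where most chain genes were lowest. PEO1, the helicase of mitochondrial DNA, had 52.7 RPKM in Q317K, 47.6 in Q317R, 37.5 in HOXD13 wt, 45.5 in PITX1 and 68.4 in the empty vector. Of 5 measured genes of mitochondrial protection from oxidants, 1 reached 1.5-fold, SOD1 in HOXD13 wt, at 46.8 RPKM against 29.9 in the empty vector. TOMM20 and TOMM22, of the import pore, were between 58.4 and 72.7 RPKM in all 5 libraries.

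Markers of cell types and of dividing cells also differed between the libraries, and their part in the members' ratios was not tested. Of 12 measured cartilage markers, 12 were at least 1.5-fold lower in Q317K than in the empty vector, 4 in Q317R, 9 in HOXD13 wt and 11 in PITX1. Of 10 measured genes of cell division, 4 were at least 1.5-fold higher in Q317K, 7 in Q317R, 5 in HOXD13 wt and 1 in PITX1, and their summed level was 346 RPKM in Q317K, 366 in Q317R, 332 in HOXD13 wt, 306 in PITX1 and 231 in the empty vector. By summed level the empty vector library was therefore lowest both in these genes and in the 42 members. Single genes differed, as TYMS had 10.6 RPKM in the empty vector and 9.89 in Q317K. The 6 chain subunits under UniProt names summed lowest in HOXD13 wt, at 658 RPKM against 723 in the empty vector. Of 8 measured skeletal muscle markers, 2 were at least 1.5-fold higher in Q317K (ACTC1 and TNNI2) and 0 lower, 3 were lower in Q317R, 4 were lower in HOXD13 wt and 0 differed by as much in PITX1. The 10 found summed to 146 RPKM in Q317K, 73.6 in Q317R, 67.2 in HOXD13 wt, 103 in PITX1 and 105 in the empty vector, while the myogenic factors MYOD1 and MYOG were at 5.32 to 8.59 RPKM in all libraries. The erythroid list summed to 894 RPKM in PITX1, where HBE alone had 747 RPKM, and to 38.6 to 57.7 RPKM in the other 4. HBB had 116 RPKM in PITX1, so the high sum there came from these globins. The rest of the list did not follow them. KLF1 had 18.1 RPKM in PITX1 and 30.3 in the empty vector, and TAL1 had 4.35 and 5.85. EPB42, HBAD and HBA, under the floor in every library, were also lower in PITX1 than in the empty vector. The 6 endothelial markers found summed to 60.1 RPKM in Q317K, 84.6 in Q317R, 142 in HOXD13 wt, 80.6 in PITX1 and 76.5 in the empty vector. Of the 4 measured, 2 (ERG and PECAM1) were at least 1.5-fold higher in HOXD13 wt and 0 lower. ERG had 121 RPKM in HOXD13 wt and 54.3 in the empty vector, and PECAM1 had 6.00 and 3.28. TIE1 and FLT1 lay on the other side, with 7.90 and 1.83 RPKM in HOXD13 wt and 10.2 and 3.16 in the empty vector. In PITX1 FLT1 had 17.4 RPKM and was the 1 marker at least 1.5-fold higher.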

How the data were processed

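RNA was selected on oligo-dT and sequenced as 115 bp single reads, per the labels' protocols. The authors deposited 1 table of RPKM values for 21998 transcripts in 5 libraries, per the file headers. No label or header names the counting tool, strand handling or annotation release. The table lists only transcripts with at least 1 read in every library. Peak lists of the series were not used here, because no label names their genome build.

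RPKM is reads divided by length and library total, so the ratios of values within and between rows gave whole reads, transcript lengths and library totals. In all 21998 rows, or 100%, the values came out whole within 0.001. Tested on simulated data, 98.5% of 3000 rows gave back the true reads and length in the recovery for these 5 libraries. In the rest reads and length shared an unseen divisor. It leaves RPKM untouched, but makes reads and length too low and an interval too wide. Shares of reads summed over such rows are too low as well.

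Members, gene lists and settings were chosen with earlier results of these data known. Genes that reached an RPKM of 5 in either library were compared as log2 of (RPKM + 1), and genes 1.5-fold apart on that scale were counted. Fold ratios in the text carry no pseudocount and have 95% exact Clopper-Pearson intervals on reads; reads without molecular identifiers are not independent molecules, so intervals cover counting error only. Count models across samples were not run, because each group had 1 library. Genes named in the text were, per comparison, the 5 members with the most positive and the 5 with the most negative ratio, the 10 members with the widest range, the 3 of highest mean in each complex, paralogs, and the genes of each list at the ends of its ratios; other members and genes of the lists were named after their values were seen. Symbols of UniProt-labelled entries were written by hand, and RefSeq names of assembly GRCg7b were used without coordinates. Sequences are not printed. The values of 1 member enter the counts, medians and sums and are not reported here on their own. Python 3.11.15, numpy 2.4.6, scipy 1.17.1, pandas 2.3.3 and matplotlib 3.10.9 were used.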

Additional observations from a re-analysis of the deposited data

How the results depend on the processing

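No paired analysis was possible because each group had 1 library and the labels give no replicate numbers, and for the same reason no replicate could be left out. No ratio past the 1.5-fold threshold, of a member named by rule, changed direction under the alternatives of pseudocount, filter, scaling and transcript. This outcome was largely fixed in advance. A pseudocount or filter cannot turn a ratio around, and the rule matched 42 rows for 42 members. Scaling shifted the median of all genes by −0.13 at the widest, well short of the threshold. The check therefore says nothing about how stable the ratios were. A ratio of 5 to 4 either way as the threshold, in place of 1.5-fold, gave 23 members higher than the empty vector in Q317K, 15 in Q317R (2 lower), 10 in HOXD13 wt (4 lower) and 14 in PITX1 (2 lower), 15 higher in Q317K over HOXD13 wt, and 4 higher and 2 lower in Q317R over HOXD13 wt. A 2-fold threshold gave 2 in Q317K, 1 in HOXD13 wt, 0 in PITX1 and 0 in Q317K over HOXD13 wt. The shares of all genes past these other thresholds, or at the other pseudocounts and scalings below, were not counted. These member counts therefore have no reference beside them. Pseudocounts moved 3 counts, to 3 in Q317R over the empty vector and 5 in Q317K over HOXD13 wt at 0.1, and to 3 in PITX1 at 5. With a minimum of 50 RPKM the count was 0 in Q317R, 1 in HOXD13 wt and 3 in PITX1, the median in Q317K was 0.56 over the empty vector and 0.34 over HOXD13 wt, and the ratio of sums was 1.37 over the empty vector and 1.27 over HOXD13 wt.

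Scaling moved HOXD13 wt over the empty vector the most. Equal RPKM sums shifted the median of all genes there by −0.13, brought the members' median to 0.023, the count to 1 and the ratio of sums to 1.00. The same scaling gave a count of 6 in Q317K, 3 in PITX1 and 6 in Q317K over HOXD13 wt, ratios of sums of 1.26 in Q317K, 1.11 in Q317R, 1.14 in PITX1, 1.26 in Q317K over HOXD13 wt and 1.10 in Q317R over HOXD13 wt, and a median of 0.16 in the last. Centring the median of all genes at 0 gave a count of 5 in Q317K over HOXD13 wt and ratios of 1.23 in PITX1 and 0.997 in Q317R over HOXD13 wt, and scaling to the upper quartile gave ratios of 1.10 in Q317R, 1.21 in PITX1 and 1.00 in Q317R over HOXD13 wt. Scaling shifts all genes too, and the shares of all genes were not counted at these scalings. The member counts here therefore cannot be read as a result about the members. The cause was not tested.

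Of the alternatives chosen after seeing the data, leaving out the 6 members under 300 bases gave counts of 6 in Q317K, 0 in Q317R, 1 in HOXD13 wt and 3 in PITX1, with ratios of sums of 1.29 in Q317K, 1.10 in Q317R, 1.07 in HOXD13 wt and 1.15 in PITX1. Adding the 6 subunits under UniProt names gave ratios of 1.31 in Q317K, 1.11 in Q317R, 1.05 in HOXD13 wt, 1.251 in Q317K over HOXD13 wt and 1.06 in Q317R over HOXD13 wt. Without the 5 members that are not subunits the count in PITX1 was 5 and the median in Q317K over the empty vector 0.45. With totals that leave out mitochondrial DNA reads the count was 11 in Q317K over the empty vector and 4 in Q317K over HOXD13 wt. Single ratios were checked only for the members named by rule, under the alternatives of pseudocount, filter, scaling and transcript. Of these values 1954 stayed within their interval and 4 did not, ATP5G3, ATP5O, COX6A1 and NDUFS8 in HOXD13 wt at equal sums. Filters on low values cannot change a member's ratio, so those checks were unchanged by design and are among the 1954. The rule matched 42 rows for 42 members, so the alternatives of transcript had 1 matched row per member to work on. With 1 library a group, depth gives counting error only, widest for COX7A2 with 42 reads in the empty vector.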
